A study of Mus musculus with 8 samples.

Results

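The immediate early genes described here are 10 genes, most of them known to rise within minutes when tissue is dissociated and cells are sorted: Fos, Fosb, Jun, Junb, Jund, Egr1, Ier2, Ier3, Dusp1 and Btg2. They were taken by name, with earlier results of these data known, and all 10 were found among the 52636 genes of the count table. All 10 also passed the filter on low counts that left 17378 genes for testing. In S0 cells of the fetal liver, 3 of them differed between genotypes at an adjusted p under 0.05, and they did not move together: Jun and Jund were higher and Fos was lower in DKO. The other 7 did not pass the test.

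The study compared S0 cells, the least mature subset of the erythroid series that cell sorting separates, between embryos that lacked the lipid transfer proteins VPS13A and VPS13C (DKO) and wild-type (WT) embryos. Livers were taken at E12.5, dissociated to single cells and sorted for live cells without lineage markers, and poly(A) RNA of S0 cells was sequenced for 4 WT and 4 DKO libraries. The mice were kept on a C57BL/6J background. In DKO embryos both genes were constitutively deleted, the Vps13a allele having been made with FLP recombinase and then β-actin-Cre. DKO embryos came from interbreeding Vps13a+/-/Vps13c-/- mice, a cross that yields no WT embryos, so WT and DKO embryos could not have been littermates of that cross. No day of dissection, sorting or library preparation is given, so handling and genotype cannot be told apart. Each library is treated as 1 embryo, which is not stated, and if libraries shared an embryo the p-values would measure technical spread. In bulk RNA, fewer cells of a type and less RNA per cell cannot be told apart.

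Immediate early genes are transcribed from poised promoters by factors that are already present in the resting cell, so their transcripts appear within minutes of a growth factor, cytokine or stress signal and decay quickly. The FOS proteins pair with JUN proteins to form the transcription factor AP-1, and JUN proteins can also pair with each other. In dissociated tissue these transcripts are widely used as a sign of how cells were handled, while in blood progenitors the same genes also answer to cytokine receptors.

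The libraries held 42114489 to 50886469 counts in WT and 36981439 to 42587815 in DKO. Vps13a was lower in DKO, at 1825 to 2109 normalized counts (counts scaled to a common effective library size) for WT and 607 to 1039 in DKO (log2 fold change -1.29, adjusted p = 0.00247), and Vps13c was not called (0.49, adjusted p = 0.182), the counts covering the whole gene and not only the deleted part. The female transcript Xist stood at 0 to 30.1 normalized counts in WT, at 62.3 in DKO replicate 3 and at 18029 to 27043 in the other DKO libraries, and the Y-linked Ddx3y was correspondingly at 2911 to 3354 in WT, 2516 in DKO replicate 3 and at most 41.0 in the others. The sex of the embryos and genotype therefore cannot be told apart except through DKO replicate 3, and values for that library alone against WT, which assume that it varies like the WT libraries, are given below where they change a call or stand apart. Counts of mesenchymal markers summed to 2187 to 6078 in WT and 13360 to 47325 in DKO, with 9 of 10 called higher, against 6.19% of all genes tested. Neutrophil and monocyte markers summed to 103794 to 135267 in WT and 5399 to 45799 in DKO, although the lineage gate included antibodies to such cells. Of these, 5 of 8 tested were called lower, against 2.43% of all genes tested. Mpo made up most of the sum, at a mean of 108147 in WT and 22998 in DKO. S100a8 and S100a9 had positive log2 fold changes, 1.45 and 0.16, and did not pass. Erythroid markers were present in every library at sums of 36802 to 43139 in WT and 34138 to 53840 in DKO, and hepatoblast markers, of which none of 10 passed, summed to 498780 to 694781 and 170266 to 608768. The share of counts in histone genes was 0.0478% to 0.0526% in WT and 0.102% to 0.117% in DKO. The share in mitochondrially encoded genes was 1.57% to 1.74% in WT and 2.33% to 2.97% in DKO. The part of these differences in the results below was not tested.

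Promoter sequence was held for 8 of the 10 genes, all but Ier2 and Egr1, in the RefSeq table for GRCm38.p6. The windows below are the bases just before the RefSeq start of 6 of them, read in the direction of the gene. They are shown because they hold, or in Jun lack, the cAMP response element TGACGTCA, the site of CREB, or its first bases TGACG. Capitals mark TGACGTCA, TGACG and the TATA box TATAAA on the gene's strand.
Fos, chr12:85473760-85473889 (plus strand): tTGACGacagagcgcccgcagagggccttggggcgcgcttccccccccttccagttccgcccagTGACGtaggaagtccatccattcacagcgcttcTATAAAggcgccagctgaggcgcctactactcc
Fosb, chr7:19310046-19310175 (minus strand): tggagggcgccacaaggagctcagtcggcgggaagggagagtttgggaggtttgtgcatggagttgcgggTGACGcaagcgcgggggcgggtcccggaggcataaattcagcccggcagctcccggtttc
Jun, chr4:95052223-95052352 (minus strand): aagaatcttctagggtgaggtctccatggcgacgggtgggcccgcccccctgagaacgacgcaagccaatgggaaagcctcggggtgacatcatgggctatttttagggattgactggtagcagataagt
Junb, chr8:84978749-84978878 (minus strand): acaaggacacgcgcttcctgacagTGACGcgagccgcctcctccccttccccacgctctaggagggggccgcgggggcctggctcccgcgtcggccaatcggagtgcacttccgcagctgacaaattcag
Dusp1, chr17:26508473-26508642 (minus strand): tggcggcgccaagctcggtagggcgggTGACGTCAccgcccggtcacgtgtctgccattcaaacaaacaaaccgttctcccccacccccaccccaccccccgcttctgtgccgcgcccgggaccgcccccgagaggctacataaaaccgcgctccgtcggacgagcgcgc
Btg2, chr1:134079156-134079325 (minus strand): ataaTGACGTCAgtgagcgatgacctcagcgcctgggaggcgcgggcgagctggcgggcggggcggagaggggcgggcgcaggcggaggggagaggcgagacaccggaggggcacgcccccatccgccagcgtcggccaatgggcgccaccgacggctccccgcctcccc

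Searched on both strands of the 250 bases before the start, TGACGTCA was found in 2 of the 8 promoters, Dusp1 at -143 to -136 and Btg2 at -166 to -159, against 1.55% of 32851 promoters of the same length. TGACG, which every TGACGTCA also contains, was found in 5 of the 8, including Fos at -129 and -66, Fosb at -60 and Junb at -106, against 17.8% of all promoters. TATAAA on the gene's strand was found in Fos alone among the 8, at -33 to -28, against 7.59% of all promoters. GGGCGG was found in 6 of the 8, against 32.7%. The AP-1 site TGANTCA was found in none of the 8 and in 6.75% of all promoters. The CArG box, the site of SRF, and the ETS site, that of ELK proteins, were also in none of the 8. They were found in 1.47% and 6.91% of all promoters. Such an absence says only that the letters searched are not in these windows. The EGR site was found in 2 of the 8, against 4.7%, and the CCAAT box in 4 of the 8, against 33.8%. A match is a description of sequence, and its part in the differences between genotypes was not tested. The Dusp1 window lies within the span of a longer annotated Dusp1 transcript. The Jund window, chr8:70697489-70697738, ends well before the annotated gene, which starts at 70698949. The Ier3 window ends at 35821712, inside the annotated gene, which starts at 35821684. Both are counted among the 8, so what they lack or hold may not describe the promoter in use.

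Fos encodes c-FOS, a partner of JUN proteins in AP-1, and lies at chr12:85473890-85477273 on the plus strand of GRCm38. Its normalized counts were 1355, 1153, 1463 and 1498 in WT replicates 1 to 4 and 406, 910.2, 643 and 995 in DKO replicates 1 to 4. No DKO value reached the lowest WT value. The means were 1367 ± 155 and 738 ± 268 (SD, n = 4), a 1.85-fold lower level in DKO (log2 fold change -0.89, SE 0.25, adjusted p = 0.0337, edgeR's quasi-likelihood test with Benjamini-Hochberg adjustment over all genes tested, the test used for every adjusted p here unless another is named). The adjusted p was 0.0596 to 0.0906 when any 1 WT library was left out and 0.0662 without DKO replicate 3, with log2 fold changes from -0.96 to -0.82 in those fits. Fos still passed without DKO replicate 1 (-0.68, adjusted p = 0.0204), 2 (-1.01, adjusted p = 0.0364) or 4 (-1.06, adjusted p = 0.0279). DKO replicate 3 alone was also below WT (-1.11, adjusted p = 0.00624).

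Fosb, the other FOS family gene among the 10, is at chr7:19302696-19310051 on the minus strand and encodes a protein with its own activation domain. It was the least abundant of the 10. Its normalized counts were 129, 109, 185 and 205 in WT and 66.2, 257, 92.8 and 222 in DKO. The DKO libraries lay on both sides of the WT range, and the means were 157 ± 45.5 and 159 ± 94.0. The log2 fold change was 0.02 with a 95% interval of -1.0004 to 1.04 (adjusted p = 0.981), too wide to say that Fosb was alike in both genotypes.

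Jun encodes c-JUN, the main JUN protein of AP-1, from a gene of 1 exon at chr4:95049034-95052222 on the minus strand. Its normalized counts were 6874, 6714, 5377 and 7279.8 in WT and 9859, 8389, 12331 and 12239.6 in DKO. The lowest DKO value exceeded the highest WT value, the reverse of Fos. The means were 6561 ± 824 and 10705 ± 1922, a 1.63-fold higher level in DKO (log2 fold change 0.71, SE 0.14, adjusted p = 0.0100). Jun passed the test in all 16 alternative fits, at 0.62 to 0.89. The antisense gene Junos overlaps it and held at most 75.7 normalized counts in any library.

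Jund encodes JUND, the JUN family member that most cells keep at a steady level and that growth signals induce least, from a gene of 1 exon at chr8:70698949-70700616 on the plus strand. Its normalized counts were 417, 540.5, 554 and 425 in WT and 957, 889, 751 and 1053 in DKO. Here too the groups did not overlap. The means were 484 ± 73.3 and 913 ± 127, a 1.88-fold higher level in DKO (log2 fold change 0.91, SE 0.17, adjusted p = 0.0068). Jund passed in 15 of the 16 alternative fits. In the fit of DKO replicate 3 alone against WT it was 0.61 (adjusted p = 0.104).

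Junb, at chr8:84974484-84978718 on the minus strand, encodes the JUN family member that counters c-JUN at many genes and is induced by cytokines in blood cells. Its normalized counts were 3667, 3431, 3967 and 3406 in WT and 3101, 5398, 5241 and 6294 in DKO. DKO replicate 1 was below every WT library and the other 3 DKO libraries were above every WT library. The means were 3618 ± 261 and 5009 ± 1354, and the difference did not pass (log2 fold change 0.47, 95% interval 0.06 to 0.88, adjusted p = 0.0987). Without DKO replicate 1 it was 0.64 (adjusted p = 0.00263), and DKO replicate 3 alone against WT gave 0.52. The 3′ end of Junb overlaps Prdx2 on the other strand, which held 18763 to 26788 normalized counts, and whether reads were counted by strand is not given in the sources used here, so reads of that stretch cannot be assigned.

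**Figure D1:**
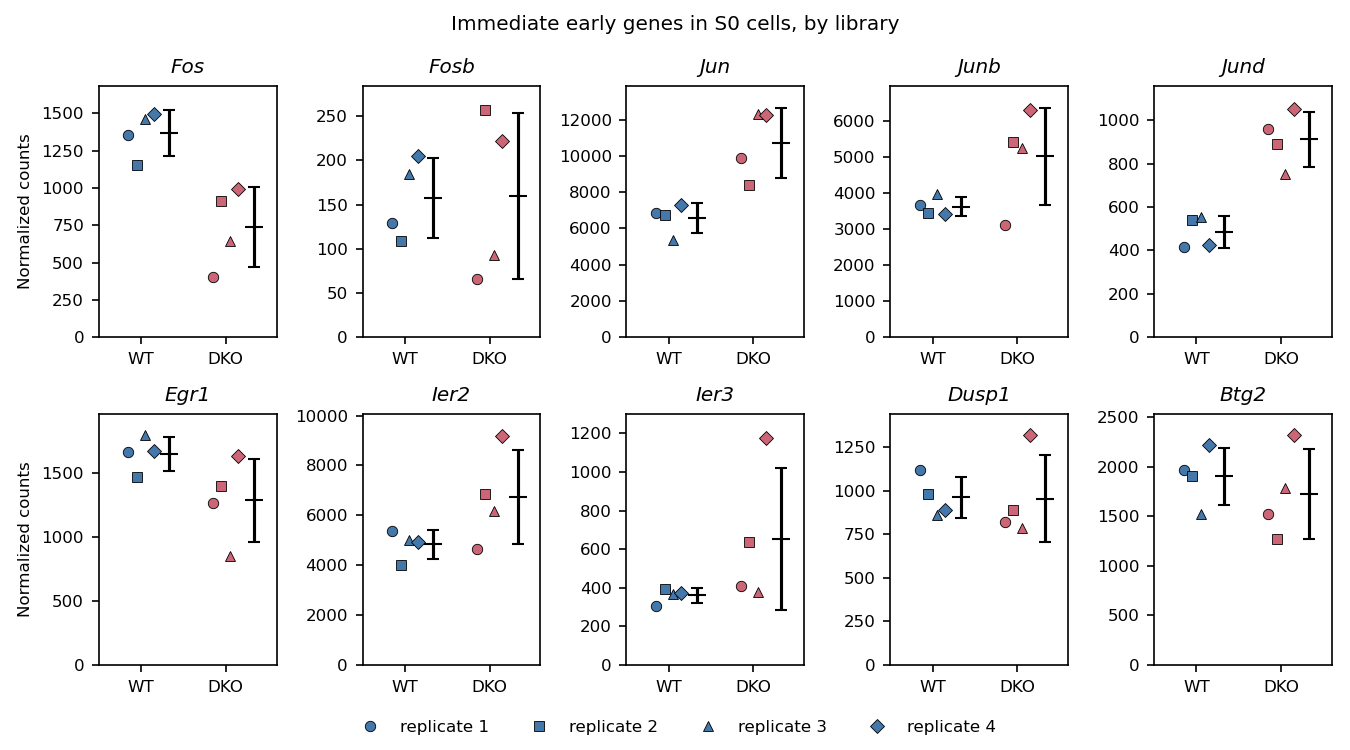
Normalized counts (y axis, from 0, a scale of its own in each panel) of the 10 genes in WT (blue) and DKO (red) libraries, with the replicate number as the symbol and the mean ± SD of 4 libraries as the black bar. Fos shows all DKO libraries below WT, Jun and Jund show all of them above, and the other 7 panels overlap, with DKO replicate 4 the highest DKO library in 8 of 10 panels.

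Egr1 encodes a zinc finger transcription factor induced through SRF and ELK proteins, and it limits the division of blood stem cells. It lies at chr18:34859823-34864984 on the plus strand. Its normalized counts were 1662, 1463, 1789 and 1665 in WT and 1259.8, 1393, 849.7 and 1626 in DKO. The highest DKO library stood within the WT range and the other 3 were below it. The means were 1645 ± 135 and 1282 ± 325 (log2 fold change -0.36, 95% interval -0.76 to 0.04, adjusted p = 0.181). DKO replicate 3, the lowest library, gave -0.97 alone against WT (adjusted p = 0.00565).

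Ier2 and Ier3 encode small proteins induced early by growth factors, a nuclear protein and a regulator of survival signalling. Ier2, a gene of 1 exon at chr8:84661331-84662852 on the minus strand, had 5383, 4016, 4992 and 4945 normalized counts in the WT libraries and 4658, 6863, 6173 and 9188 in DKO. DKO replicate 1 stood within the WT range and the other 3 above it. The means were 4834 ± 580 and 6720 ± 1885 (log2 fold change 0.48, 95% interval 0.06 to 0.89, adjusted p = 0.0964), and without DKO replicate 1 the value was 0.62 (adjusted p = 0.0156). Ier3, at chr17:35821684-35822923 on the plus strand, had 304, 395, 369 and 372 normalized counts in the WT libraries and 411, 636, 379.7 and 1175 in DKO. DKO replicate 3 fell within the WT range, and DKO replicate 4 stood far above the other DKO libraries. The means were 360.1 ± 39.3 and 650 ± 368 (0.85, 95% interval 0.09 to 1.62, adjusted p = 0.104). Without DKO replicate 3 the value was 1.04 (adjusted p = 0.048), and that library alone against WT gave 0.06 (adjusted p = 0.898).

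Dusp1 and Btg2 act as brakes on the response. Dusp1 encodes a phosphatase that switches off MAP kinases and lies at chr17:26505590-26562128 on the minus strand. It had 1121, 981, 858 and 893 normalized counts in the WT libraries and 822, 890.4, 789 and 1322 in DKO, and the groups overlapped. The means were 963 ± 117 and 956 ± 248 (log2 fold change -0.01, 95% interval -0.42 to 0.40, adjusted p = 0.975), and the sign of this difference changed in 8 of the 16 alternative fits, among them upper-quartile scaling. The annotated Dusp1 gene overlaps Ergic1 on the other strand, at 6488 to 7555 normalized counts in WT and 4863 to 5570 in DKO. As for Junb, reads of that stretch cannot be assigned. Btg2, at chr1:134075170-134079120 on the minus strand, encodes an antiproliferative protein that binds the CCR4-NOT deadenylase and is a target of p53. It had 1969, 1905, 1524 and 2218 normalized counts in the WT libraries and 1522, 1269, 1781 and 2323 in DKO. These groups overlapped as well, at means of 1904 ± 287 and 1724 ± 451 (-0.14, 95% interval -0.56 to 0.28, adjusted p = 0.627).

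None of the 10 genes reached the study's fold threshold, an adjusted p under 0.05 with a log2 fold change beyond 1, which 8.63% of all genes tested did. DESeq2 also called none beyond that fold, and 6 of the 10 had an unadjusted p under 0.05 in edgeR, as did 36.3% of all genes tested. With no fold threshold, 2 were higher, against 10.7% of all genes, and 1 was lower, against 10.8%. That made 30% of the 10 against 21.6% of all genes in either direction. DESeq2 called the same numbers, 2 higher and 1 lower. The libraries of Jun and Jund stood above WT without overlap, as for 13.5% of all genes, and those of Fos stood below, as for 14.6%, so 3 of the 10 did not overlap against 28.1% of all genes. The log2 fold change was positive for 6 and negative for 4, with Dusp1 counted as negative and Fosb as positive although both changed sign in other fits, and its median was 0.24 against 0.03 over all genes tested. With upper-quartile scaling 4 genes were higher at any fold, Junb and Ier2 joining Jun and Jund, and the median of all genes moved to 0.14.

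**Figure D2:**
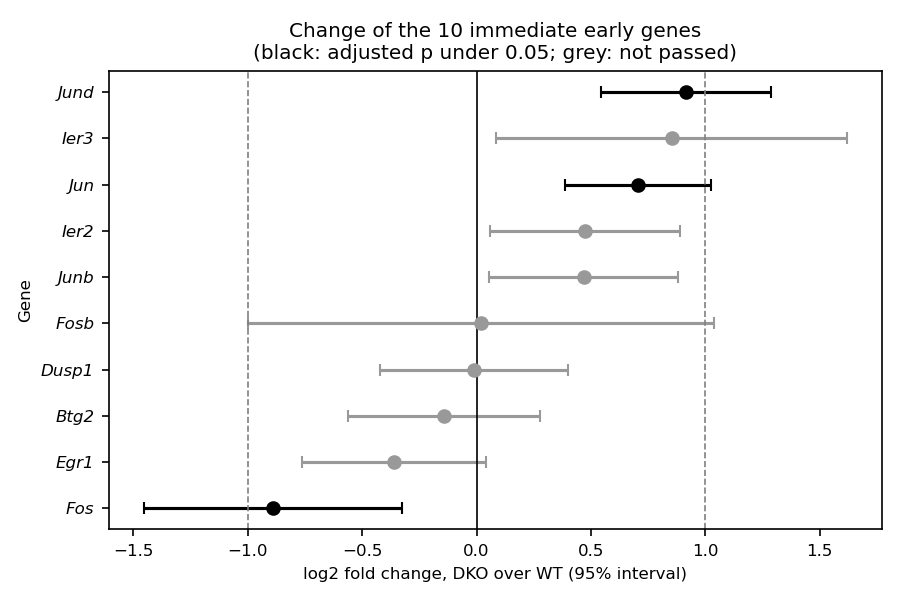
log2 fold change of DKO over WT (x axis) with its 95% interval for each of the 10 genes, black where the adjusted p was under 0.05 and grey where it was not, with dashed lines at the study's fold threshold. Jund and Jun lie to the right at 0.91 and 0.71, Fos lies to the left at -0.89, and no point lies beyond the dashed lines.

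Levels of different genes were compared per length, as CPM (counts scaled to a common library total) per kilobase of exon. In WT, Ier2 was the highest at 72.3 ± 8.67, followed by Jun at 46.9 ± 5.89 and Junb at 35.8 ± 2.58. Btg2 at 15.8 ± 2.38 and Fos at 13.2 ± 1.503 came next, then Egr1 at 8.35 ± 0.684, Ier3 at 7.25 ± 0.792, Dusp1 at 6.62 ± 0.805 and Jund at 6.61 ± 1.001. Fosb was the lowest, at 0.573 ± 0.166. The library ranges of neighbours in this order did not overlap between Ier2 and Jun, Junb and Btg2, Fos and Egr1, and Jund and Fosb, and they overlapped for the other neighbours.

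By mean level the first 4 genes had the same order in DKO, with Ier2 at 101 ± 28.2, Jun at 76.4 ± 13.7, Junb at 49.6 ± 13.4 and Btg2 at 14.3 ± 3.74 CPM per kilobase. Below them Ier3 at 13.1 ± 7.41 and Jund at 12.46 ± 1.74 stood above Fos at 7.15 ± 2.59, with Dusp1 at 6.57 ± 1.70, Egr1 at 6.51 ± 1.65 and Fosb at 0.581 ± 0.343 last. The DKO library ranges of neighbours did not overlap between Junb and Btg2, Jund and Fos, and Egr1 and Fosb, and they overlapped for the other neighbours, Ier2 and Jun among them. Jund and Fos changed places between the genotypes, from Fos above Jund in each WT library to Jund above Fos in each DKO library. By percentile, Jund had a level above 64.9% of the genes tested in WT and 76.6% in DKO, and Fos above 76.6% in WT and 66.8% in DKO.

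With Fos lower and Jun and Jund higher, the balance among the 5 AP-1 genes also differed, a summary chosen after the values were seen and given without a test. Fos and Fosb together made up 13.0%, 11.5%, 14.8% and 14.3% of the summed per-length level of Fos, Fosb, Jun, Junb and Jund in WT replicates 1 to 4. In DKO replicates 1 to 4 they made up 3.52%, 7.21%, 4.19% and 5.98%. The ratio of Jun to Fos per length was 3.74, 4.29, 2.71 and 3.58 in WT and 17.9, 6.80, 14.1 and 9.08 in DKO. The ratio of Jund to Fos was 0.434, 0.661, 0.534 and 0.400 in WT and 3.33, 1.38, 1.65 and 1.49 in DKO. For all 3 measures the DKO libraries stood apart from the WT libraries. For the ratios this follows from the values above, because every DKO library was lower for Fos and higher for Jun and Jund than any WT library. The share draws on the same genes, so none of the 3 measures is separate support. These ratios are taken within a library, so they do not depend on how libraries were scaled to each other.

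**Figure D3:**
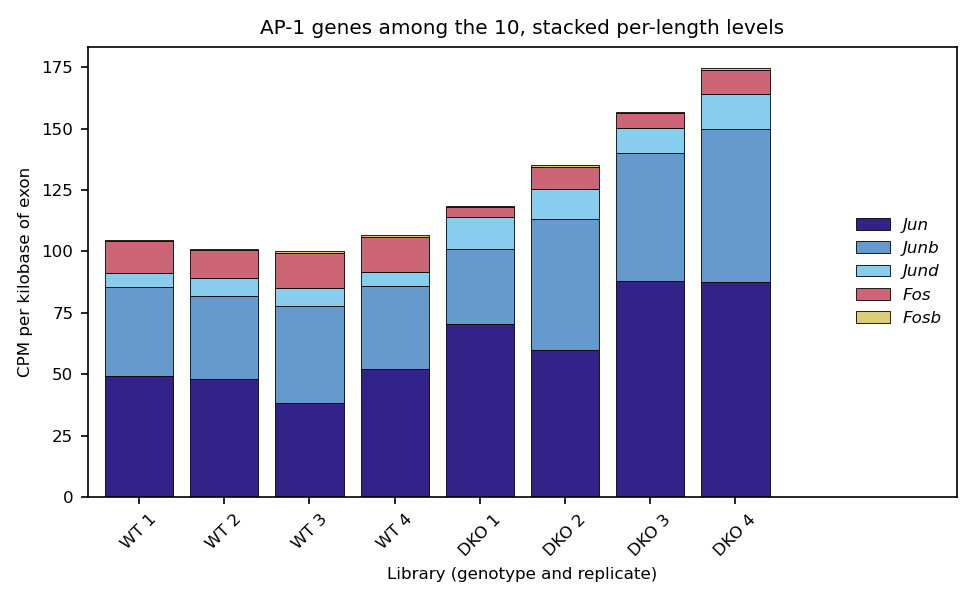
Per-length levels (CPM per kilobase of exon, y axis from 0) of the 5 AP-1 genes among the 10, stacked for each WT and DKO library, with the JUN genes in blue shades and the FOS genes in red and yellow. Fos takes a smaller part of each DKO bar than of any WT bar, the share of Fos and Fosb being 11.5% to 14.8% in WT and 3.52% to 7.21% in DKO.

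The summed counts of all 10 genes were 521, 472, 479.989 and 522 CPM in WT and 525, 612, 661 and 829.7 in DKO. Every DKO library stood above every WT library, DKO replicate 1 by a small margin, although only Jun and Jund passed the test as higher. Summed per length, the groups overlapped: WT libraries held 224, 199, 209.8 and 221 CPM per kilobase and DKO libraries 220.97, 274, 281 and 372, with DKO replicate 1 inside the WT range. Jun, Ier2 and Junb, the most abundant genes, carry most of this sum.

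DKO libraries differed among themselves more than WT libraries did. The SD of log2 normalized counts was larger in DKO for 9 of the 10 genes, all but Jund, as it was for 75.4% of all genes tested. In DKO it was above the median of genes of like level for the same 9, and in WT for 7. The highest DKO library exceeded the lowest by 3.88-fold for Fosb, 3.10-fold for Ier3 and 2.45-fold for Fos. DKO replicate 4 was the highest DKO library for 8 of the 10 genes and the lowest for none, the exceptions being Fosb, highest in replicate 2, and Jun, highest in replicate 3. DKO replicates 1 and 3 were each the lowest for 4. In WT no library was highest for more than 4.

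Markers of other cells did not follow this order of libraries in one way. Mesenchymal markers were highest in DKO replicate 1, at 47325 summed normalized counts, a library that was the highest DKO library for none of the 10 genes. Megakaryocyte markers were highest in DKO replicate 4, at 133833 against 45969 in DKO replicate 2 and 65020 to 76465 in WT. Macrophage markers, at 4864 to 7374 in WT and 1369 to 4383 in DKO with 1 of 8 tested called lower, had Cd163 at 0 in every library. Neutrophil and monocyte markers had Ly6g at 0 in every library. Endothelial markers were 6565 to 8506 in WT and 3494 to 5004 in DKO, with 3 of 10 lower at any fold. Neural markers were 681 to 998 in WT and 979 to 4919 in DKO, with 1 of 6 tested called higher. Over all genes tested, 6.19% were called higher and 2.43% lower, and 10.8% were lower at any fold. The part of these cells in the levels of the 10 genes was not tested.

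Beyond the 10, a list of 50 other immediate early genes held 45 that were tested. Of these, 13 were called higher and 1 lower beyond the fold threshold, against 6.19% and 2.43% of all genes, and their median log2 fold change was 0.44. With no fold threshold 16 were higher, against 10.7% of all genes, 4 were lower, against 10.8%, and 25 did not pass. The count of 13 fell to 8 without WT replicate 1, 7 without WT replicate 2, 7 without WT replicate 4, 8 without DKO replicate 4 and 6 with DKO replicate 3 alone against WT.

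Atf3, which encodes a stress-induced factor of the ATF family that can pair with JUN, had 79.6, 20.7, 26.9 and 8.74 normalized counts in the WT libraries and 165, 342, 378 and 701 in DKO (log2 fold change 3.55, SE 0.69, adjusted p = 0.0087). Its lowest DKO library was above its highest WT library. Gadd45a, a p53 target induced by growth arrest and DNA damage, had 292, 332, 375 and 342 in WT and 785, 853, 665 and 1498 in DKO (1.503, adjusted p = 0.00531). Socs3, which restrains cytokine receptors that signal through JAK kinases, had 139, 82.6, 108 and 121 in WT and 460.2, 242, 315 and 303 in DKO (1.55, adjusted p = 0.00686). The highest DKO library was replicate 4 for Atf3 and Gadd45a and replicate 1 for Socs3.

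Ier5, a relative of Ier2 that modulates heat shock factor 1, rose with little spread, from 216 ± 24.3 to 449 ± 30.0 normalized counts (log2 fold change 1.06, adjusted p = 0.00551). Sgk1, a kinase induced by serum and glucocorticoids, was 269 ± 47.2 in WT and 578 ± 94.9 in DKO (1.10, adjusted p = 0.00719), and DKO replicate 3 alone against WT gave 0.68 (adjusted p = 0.122). Rgs2, which limits signalling by G proteins, fell, from 1676, 2237, 1601 and 1728 in WT to 489.6, 967, 632 and 836 in DKO (-1.31, adjusted p = 0.00476). Rgs2, like Fos, was thus lower in every DKO library than in any WT library. Genes that passed only without the fold threshold were chosen for mention after their values were seen. Nfkbia, the inhibitor of NF-kB, was higher (0.85, adjusted p = 0.00143), and Myc (-0.63, adjusted p = 0.00228), Klf10, a TGF-beta-induced zinc finger factor (-0.74, adjusted p = 0.00536), and Zfp36, which removes AU-rich mRNAs (-0.64, adjusted p = 0.0261), were lower. Zfp36 lost its call without WT replicate 1, 2 or 4 or DKO replicate 2, at adjusted p = 0.0523 to 0.0772.

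**Figure D4:**
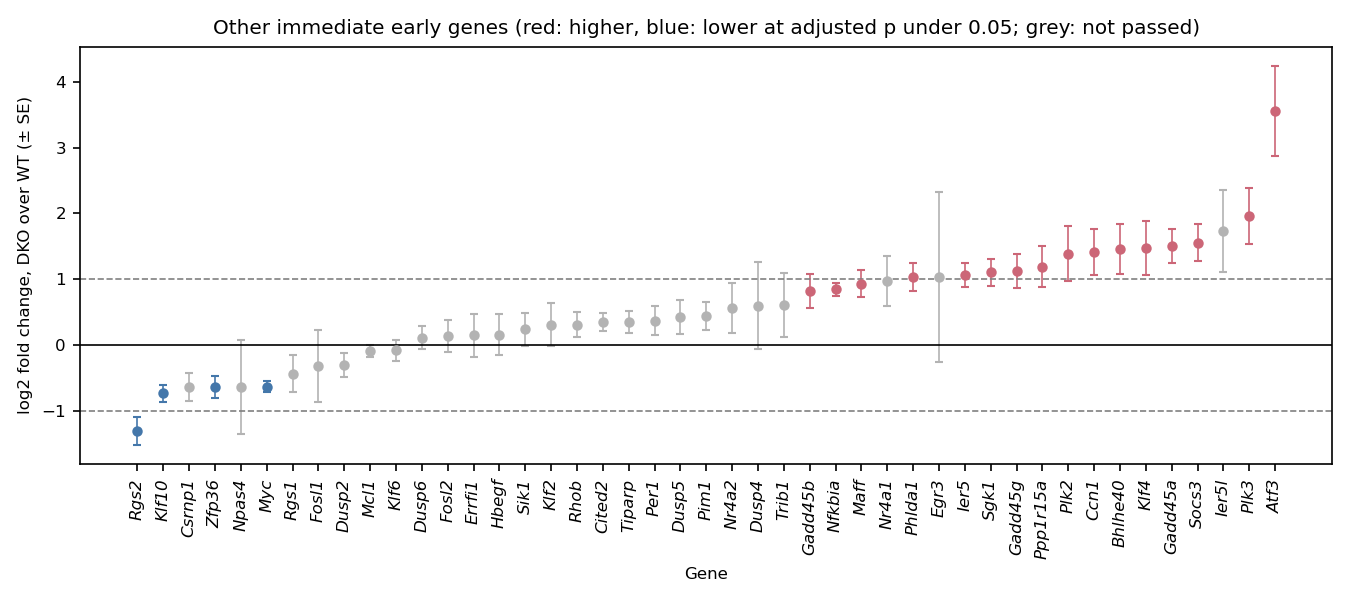
log2 fold change of DKO over WT ± SE (y axis) for the 45 tested genes of the list of other immediate early genes, ordered by size, red for higher and blue for lower at an adjusted p under 0.05, with dashed lines at the fold threshold. The red points reach from 0.82 for Gadd45b to 3.55 for Atf3, the 4 blue points are Rgs2, Klf10, Zfp36 and Myc, and 25 points are grey.

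Other genes of the pathway were taken from lists. Over all genes tested, 10.7% were higher and 10.8% lower with no fold threshold, the shares to set beside the counts below. Of 11 tested AP-1 partners, none was called beyond the fold threshold, by edgeR, and with no threshold 1 was higher (Mafg, 0.49, adjusted p = 0.018) and 1 lower (Mafk, -0.61, adjusted p = 0.0345). Both calls were lost without WT replicate 1 or 4, and Mafk also without WT replicate 2 or 3 or DKO replicate 2. With DKO replicate 3 alone against WT neither passed, at 0.39 for Mafg (adjusted p = 0.0835) and -0.38 for Mafk (adjusted p = 0.162). Jdp2 and Maf, named after their values were seen, had larger log2 fold changes than any of the 10, 1.98 and 1.97, and did not pass (adjusted p = 0.176 and 0.0629). Of 25 kinases and factors that induce immediate early genes, none was higher and 5 were lower with no fold threshold, and none passed it. These were Mrtfa, the actin-regulated partner of SRF (-0.88, adjusted p = 0.00346), the RSK kinase gene Rps6ka1 (-0.86, adjusted p = 0.0204), Mapk8, which encodes JNK1, a kinase that acts on c-JUN (-0.48, adjusted p = 0.015), Creb1, the factor that binds TGACGTCA (-0.35, adjusted p = 0.0185), and Mapk14, which encodes p38 alpha (-0.40, adjusted p = 0.0406). Leaving out 1 library ended the calls of all but Mrtfa in some fits: Rps6ka1 without WT replicate 1, 2 or 4, Mapk8 without WT replicate 2, Creb1 without WT replicate 1 or 2, and Mapk14 without any but DKO replicate 3, at adjusted p = 0.0501 to 0.117 in those fits. With DKO replicate 3 alone against WT, Creb1 (-0.38, adjusted p = 0.0978) and Mapk14 (-0.20, adjusted p = 0.391) did not pass.

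Immediate early mRNAs are short-lived because AU-rich stretches recruit factors that shorten their poly(A) tails. A list of 22 tested factors held proteins that bind such stretches, not all of which promote decay, and proteins of tail shortening. With no fold threshold 2 were higher and 7 lower, against 10.7% and 10.8% of all genes, and none passed the fold threshold. Lower were Zfp36 and Zfp36l2, which bind AU-rich stretches, and Cnot1, Cnot6l, Cnot7, Cnot8 and Parn, which belong to deadenylases or are one. Higher were Hnrnpd, which binds AU-rich RNA, and Btg1, a relative of Btg2. Their log2 fold changes lay between -0.74 for Zfp36l2 and 0.66 for Btg1. Leaving out 1 library ended the calls of Btg1 (WT replicate 1, 3 or 4), Cnot6l (any WT library, DKO replicate 2 or 4) and Cnot7 (WT replicate 1, 2 or 4, DKO replicate 4), at adjusted p = 0.051 to 0.0938, beside that of Zfp36, and it ended none of the calls of Zfp36l2, Cnot1, Cnot8, Parn and Hnrnpd. With DKO replicate 3 alone against WT, Parn (-0.35, adjusted p = 0.0613), Btg1 (0.44, adjusted p = 0.0674), Cnot6l (-0.24, adjusted p = 0.198) and Cnot7 (-0.26, adjusted p = 0.12) did not pass. Heat shock genes, listed as induced by handling, had a median log2 fold change of -0.30 over 11 tested, 4 positive and 7 negative. Hspa1a (-0.50, adjusted p = 0.453) and Hspa1b (1.06, adjusted p = 0.137) went opposite ways and did not pass. Hspb1, which encodes a small heat shock protein, was the 1 called higher beyond the fold threshold, from 22.8 ± 4.998 to 136 ± 74.4 normalized counts (2.57, adjusted p = 0.0067). Of all genes tested, 6.19% were called higher. Hspa8 (-0.72, adjusted p = 0.033) and Hsph1 (-0.63, adjusted p = 0.0193) were lower with no fold threshold, and Hspa8 lost its call without any 1 WT library or without DKO replicate 4, and Hsph1 without WT replicate 1 or 2. Neither passed with DKO replicate 3 alone against WT, at -0.25 for Hspa8 (adjusted p = 0.173) and -0.29 for Hsph1 (adjusted p = 0.108).

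The 10 genes are compact. The median length of their merged exons was 2547.5 bases against 3747 over all genes tested, and the median genomic span was 3667.5 against 17796 bases. Among other genes with a mean of at least 100 normalized counts, those whose centred log2 values over the 8 libraries came closest to the median profile of the 10 were Nampt, Card19, Ghitm, Eif3c and Slc37a4, with root mean square differences of 0.0751, 0.082, 0.0837, 0.101 and 0.101. None of these 5 passed the test between genotypes, and like most of the 10 they were highest in DKO replicate 4. Both traits follow from the choice, because the median profile overlapped between genotypes and peaked in DKO replicate 4, at 0.57. Of the 10 genes, Fos, Fosb and Jund lay furthest from that profile, at 0.649, 0.525 and 0.406.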

How the data were processed

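S0 cells of 4 WT and 4 DKO fetal livers at E12.5 were sequenced after template-switching library preparation. The authors deposited unnormalized whole-number counts per gene for each library; the submitters' processing notes name fastp 0.21.0, HISAT2 2.2.1, StringTie 1.3.3b and the mm10 build. Template switching copies poly(A) RNA, so histone shares depend on tails. Of 52636 gene identifiers, 52489 matched the GENCODE annotation of GRCm38, which gave symbols, positions and exon lengths. Groups came from the sample labels.

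Counts were filtered with filterByExpr, scaled by TMM and compared with the robust quasi-likelihood test of edgeR 4.0.16 (limma 3.58.1, R 4.3.3), with Benjamini-Hochberg adjustment over 17378 genes and no covariate; intervals are 95% intervals of the log2 fold change. The steps were tested on simulated data, where the sign of changed genes was recovered but part of them missed the threshold, so a gene that did not pass may still differ. DESeq2 1.42.0, the tool the study used, was an alternative, with other scalings, filters, gene sets, a replicate block and libraries left out.

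All 10 genes were named. From each other list, genes past an adjusted p of 0.05 and a log2 fold change beyond 1 were named, at most 6 by smallest p, and other genes were chosen after their values were seen. The 10 genes and the lists were chosen with earlier results of these data known. Same-numbered libraries did not deviate together. Unnormalized counts of the 10 genes ran from 63 for Fosb in DKO replicate 1 to 11714 for Jun in DKO replicate 4. How much counting error added to the spread between libraries was not tested.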

Additional observations from a re-analysis of the deposited data

How the results depend on the processing

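Of 160 values, the log2 fold changes of the 10 genes under 16 alternatives, 131 kept their direction and side of the threshold, 7 lost a call, 7 gained one and 15 changed sign, all of these for Fosb or Dusp1. Fosb was -0.00029 with no low-count filter and -0.78 with DKO replicate 3 alone against WT, and -0.31 to 0.28 with 1 library left out. Dusp1 was 0.10 with upper-quartile scaling, 0.0048 with at least 10 counts in every library, 0.025 over protein-coding genes, and -0.20 to 0.074 with 1 library left out. Vps13c was -0.19 with DKO replicate 3 alone. In that last fit the lone library is assumed to vary like WT.

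Beyond the fold threshold, upper-quartile scaling called 1 of the 10 higher, Jund, and DKO replicate 3 alone called 1 lower, Fos. Leaving out 1 library gave 0 to 1 higher (Ier3 without DKO replicate 3) and 0 to 1 lower (Fos without DKO replicate 2 or 4). With no fold threshold, upper-quartile scaling called 4 higher and DKO replicate 3 alone 2 lower, and leaving out 1 library gave 2 to 4 higher (4 without DKO replicate 1) and 0 to 1 lower (0 without any 1 WT library or DKO replicate 3). Of the other immediate early genes, 6 were higher and 2 lower with DKO replicate 3 alone, and 7 to 15 were higher with 1 library left out. Of all genes, 1651 were called higher by DESeq2, 590 higher and 1143 lower with DKO replicate 3 alone, and 566 to 1148 higher and 243 to 521 lower with 1 library left out, or 858 to 1915 and 898 to 2012 with no fold threshold. Upper-quartile scaling moved the median of all genes to 0.14 and gave 1228 higher and 325 lower, or 2492 and 1242 with no fold threshold against 1867 and 1878. The cause was not tested.

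With replicate number as a block, Fos was -0.96 (adjusted p = 0.0523), so 0 of the 10 were lower at any fold, and Fosb was -0.16. Of all genes, 613 were then called higher, and 1026 higher and 1083 lower at any fold. Same-numbered libraries correlated at -0.089 to 0.043 in their deviations from the group means, and WT and DKO replicates did not each correlate best with their own number. The numbers are those of the sample titles, and whether libraries shared a day of handling was not tested.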
